A study of Mus musculus with 31 samples.

Results

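The mature miRNAs miR-132-3p and miR-212-3p, of a single gene cluster, are described here in mouse lung. They were chosen by name: all probes whose entry on the array is mmu-miR-132-3p or mmu-miR-212-3p were taken, on every array. They are 2 of the 650 miRNAs on the array and 2 of the 273 that were bright enough to be tested. The lungs came from female mice of the inbred BALB/c strain that breathed cigarette smoke or room air. The groups are 4 weeks smoke, 4 weeks control, 6 weeks smoke, 6 weeks control, 8 weeks smoke, 8 weeks control, 12 weeks smoke and 12 weeks control. Each has 4 arrays, except 12 weeks smoke, which has 3, so that 15 smoke arrays were set against 16 control arrays. Whole lung was used, so a lower or higher level cannot separate a change in the number of cells of a type from a change in the RNA per cell. The sources used here give neither the age of the mice nor the smoke dose, and do not say whether the arrays of a group hold separate animals. The p-values therefore rest on array-to-array spread alone, part of which could be technical.

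miR-132 and miR-212 are cut from one primary transcript, a non-coding RNA whose transcription is driven by the factor CREB. They are best known from neurons, where synaptic activity induces them and miR-132 promotes dendrite growth. In blood and immune cells miR-132 is induced by bacterial lipopolysaccharide and targets acetylcholinesterase, an enzyme whose substrate acetylcholine dampens inflammation.

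Both mature 3p sequences were found in RefSeq (GRCm38.p6). They are shown because the pair shares a seed, the bases that pair with targets, while each has its own probes on the array. The probe sequences were not used here, so how far each probe also binds the other miRNA was not tested, which bears on every level and on their ratio. Both lie on the plus strand of chromosome 11, miR-132-3p at chr11:75173723-75173744 and miR-212-3p at chr11:75173443-75173464. Capitals mark the seed, bases 2 to 8 from the 5′ end.
mmu-miR-132-3p: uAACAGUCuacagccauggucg
mmu-miR-212-3p: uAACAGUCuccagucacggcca
The first 9 bases are identical, as are 17 of the 22 positions. Counted from the 5′ end of miR-132-3p, the substitutions towards miR-212-3p are A10C, C14U, U17C, U20C and G22A. No other of the 1679 mature miRNA names in the RefSeq table holds this seed.

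The hairpins lie in the order Mir212, Mir132, with 203 bases between them. Capitals mark both mature arms of each hairpin, the 5p arm first.
Mir212, chr11:75173388-75173478: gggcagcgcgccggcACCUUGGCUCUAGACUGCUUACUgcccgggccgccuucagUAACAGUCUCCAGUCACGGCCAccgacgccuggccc
Mir132, chr11:75173682-75173747: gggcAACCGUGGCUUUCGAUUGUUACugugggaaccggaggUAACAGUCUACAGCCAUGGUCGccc
An entry for either 5p arm was not found among the array's names (0 entries), so the results concern the 3p arms alone. The promoter of the cluster was not analysed here.

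Each miRNA has 2 probes with 10 spots each, and the brighter probe stands for it. Its spot values are intensities after background subtraction by the scanner's software. To set arrays side by side, signals were scaled to the array's own 75th percentile, taken over 385 probes that were detected everywhere. Scaled signals are given as a percent of that percentile, and differences on the log2 scale. These percentiles ran from 1018 to 3725 intensity units. The arrays were scanned on 4 slides that each held smoke and control samples of every duration, except slide 4, which held no 12 weeks smoke array. Smoke arrays always lay in the first line of a slide and control arrays in the second, with 1 column per duration, so array position cannot be told apart from smoke or duration. On the leading principal component 4 weeks smoke replicates 2 and 3 had the highest scores, at 9.12 and 4.84 against -5.28 to 3.90 for all other arrays. Only the first of them lay far from the rest. The 12 weeks smoke replicate 3 was high in the liver miRNA miR-122-5p. Limma results of miR-132-3p without these arrays are given below.

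miR-132-3p was higher in smoke-exposed lungs than in control lungs at all 4 durations. At 4 weeks its scaled signal was 2.33, 4.53, 3.63 and 2.29% on the smoke arrays, against 1.44, 1.38, 1.32 and 1.28% on the control arrays. At 6 weeks it was 3.09, 3.70, 3.00 and 2.91% on the smoke arrays, against 1.60, 1.50, 2.19 and 1.87% on the control arrays. In both of these weeks every smoke array lay above every control array, and at 4 weeks the control arrays were tightly grouped while the smoke arrays spread widely. At 8 weeks the smoke arrays gave 3.67, 2.26, 2.37 and 3.27%, against 1.70, 1.70, 1.60 and 1.59% on the control arrays. At 12 weeks the smoke arrays gave 3.08, 2.94 and 3.30%, against 1.65, 1.95, 1.89 and 1.99% on the control arrays. The groups did not overlap at these durations either.

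Over all durations, the smoke arrays ran from 2.26 to 4.53% (median 3.08%, n = 15) and the control arrays from 1.28 to 2.19% (median 1.63%, n = 16). So each of the 15 smoke arrays was above each of the 16 control arrays, whatever its duration. Only 4 of the 273 tested miRNAs (1.47%) separated the arrays in this way. Within 1 duration such a separation was more common: every smoke array was above every control array for 23.4% of the tested miRNAs at 4 weeks, 15.8% at 6 weeks, 4.76% at 8 weeks and 16.5% at 12 weeks.

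**Figure D1:**
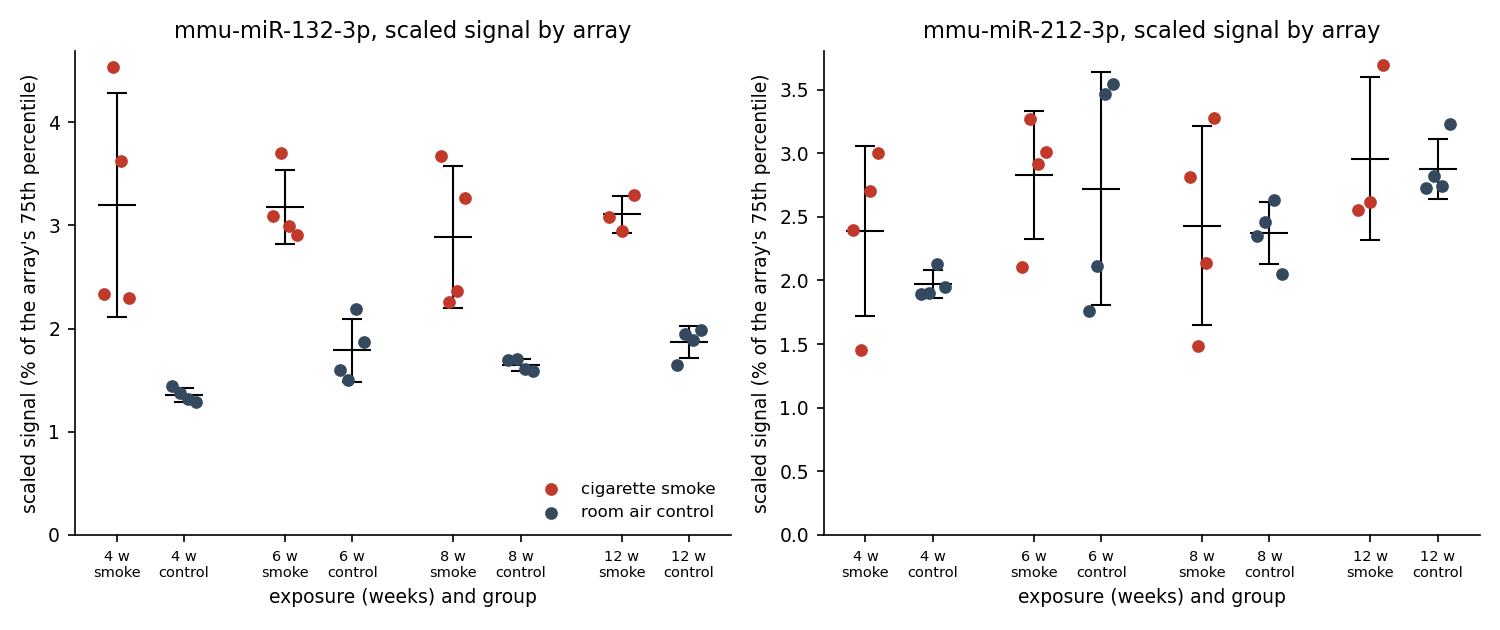
Scaled signal of miR-132-3p (left) and miR-212-3p (right), as a percent of the array's 75th percentile, for each array of the 8 groups; points are arrays, wide ticks are group means and bars are 1 SD. The miR-132-3p signal of the smoke arrays starts at 2.26%, above the highest control array at 2.19%, while the miR-212-3p groups overlap.

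The limma fit over all 273 miRNAs put the rise of miR-132-3p at 1.18 ± 0.17 log2 after 4 weeks (SE, 4 smoke and 4 control arrays, 2.26-fold), with a 95% interval of 0.83 to 1.53 and an adjusted p of 1.70e-05. At that duration 39.6% of the tested miRNAs passed, 28.2% as higher and 11.4% as lower in smoke, and the median of all 273 differences was 0.17 log2. After 6 weeks miR-132-3p rose by 0.83 ± 0.17 log2 (1.78-fold, interval 0.48 to 1.19, limma adjusted p 0.00132), where 8.06% of the tested miRNAs passed, 7.69% as higher and 0.366% as lower in smoke. The rise was 0.78 ± 0.17 log2 after 8 weeks (1.72-fold, interval 0.43 to 1.13, limma adjusted p 0.00297), where 11.0% passed, 3.66% as higher and 7.33% as lower. After 12 weeks it was 0.74 ± 0.18 log2 (1.66-fold, interval 0.36 to 1.11, limma adjusted p 0.00801), where 9.52% passed, 5.13% as higher and 4.40% as lower. The medians of all 273 differences lay at 0.012, -0.047 and -0.075 log2 in the last 3 comparisons, well below the miR-132-3p values.

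Averaged over the 4 durations with equal weight, miR-132-3p rose by 0.88 ± 0.087 log2 (1.84-fold, interval 0.70 to 1.06, limma adjusted p 1.41e-08), and 15 of 15 smoke arrays lay above the controls. It ranked 5 among the 273 averaged differences, of which 75 passed (27.5%), 42 as higher (15.4%) and 33 as lower in smoke (12.1%). Whether the 4 differences are unequal was tested by limma's F test, which gave F = 1.36 and an adjusted p of 0.361 for miR-132-3p, while 6.96% of the tested miRNAs passed it. The test thus did not separate the smaller estimates at later durations from the 4 weeks value. On the linear scale, with no floor, the smoke mean exceeded the control mean by 1.43 percentage points (two-sided permutation test with 100000 relabellings within durations, p = 1e-05, the smallest they can give).

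Without 4 weeks smoke replicates 2 and 3, the 2 arrays with the highest scaled miR-132-3p signal of that group, the 4 weeks rise was 0.77 log2 (limma adjusted p 0.00171) and the averaged rise was 0.78 log2 (limma adjusted p 3.05e-09). Without 12 weeks smoke replicate 3 the 12 weeks rise was 0.69 log2 (limma adjusted p 0.0344). With no scaling between arrays the 6 weeks value was nearly the same, 0.82 log2, with a larger SE (0.253) and an adjusted p of 0.143 in limma, while the 8 weeks value was -0.04 log2 (limma adjusted p 0.888). Normexp, a model-based background correction, left no duration past the threshold and put 4 weeks at -0.72 log2 (limma adjusted p 0.203). That correction raised all signals of 3 arrays, and without them the values were 0.34, 0.16, 0.56 and -0.05 log2 at 4, 6, 8 and 12 weeks, with no duration past the threshold either (limma adjusted p 0.448, 0.671, 0.0648 and 0.889). It adds an offset of 50 units, beside processed miR-132-3p signals of 18.6 to 84.3 units, which shrinks log2 differences. With no offset as well, the values were larger at every duration. The 8 weeks value and the average then passed, while 4, 6 and 12 weeks did not, as given in the closing section.

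**Figure D2:**
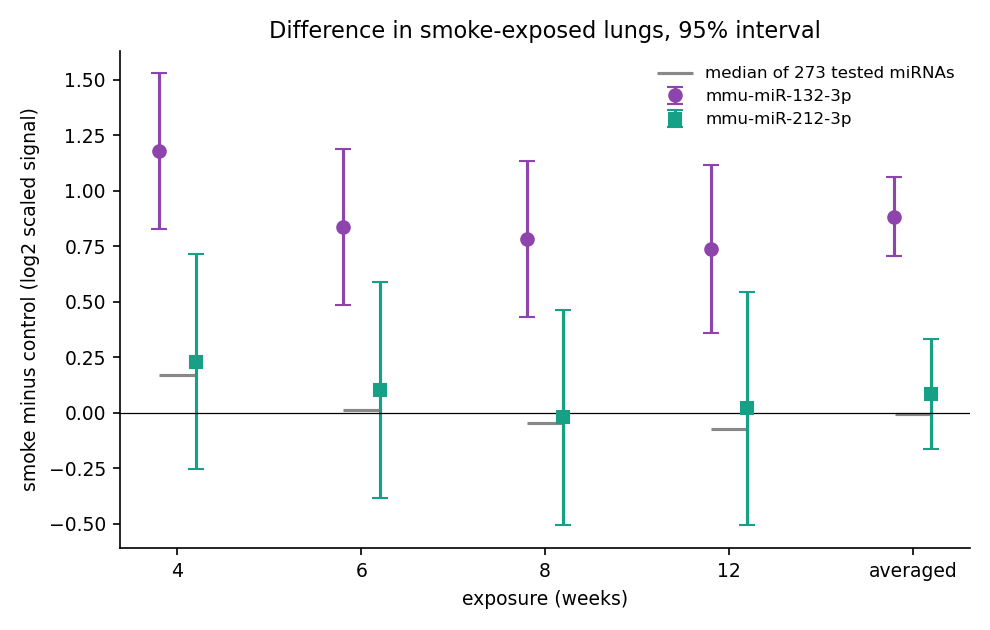
Smoke minus control difference in log2 scaled signal at 4, 6, 8 and 12 weeks and averaged, for miR-132-3p (circles) and miR-212-3p (squares), with 95% intervals; grey ticks are the median of all 273 tested miRNAs. The miR-132-3p intervals lie above 0 at every duration, from 0.36 upwards, and every miR-212-3p interval includes 0.

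miR-212-3p, from the same primary transcript, did not pass the test at any duration. At 4 weeks its scaled signal was 2.40, 1.46, 2.71 and 3.00% on the smoke arrays, against 1.90, 1.90, 2.13 and 1.95% on the control arrays. At 6 weeks the smoke arrays gave 2.11, 3.27, 2.92 and 3.01%, against 1.76, 2.12, 3.47 and 3.54% on the control arrays. One smoke array of 4 weeks, replicate 2, was the lowest of that duration, and the other smoke arrays of 4 weeks were above all its controls, while at 6 weeks the highest values were on control arrays. At 8 weeks the smoke arrays gave 2.81, 1.49, 2.14 and 3.28%, against 2.35, 2.46, 2.63 and 2.05% on the control arrays. At 12 weeks the smoke arrays gave 2.56, 2.61 and 3.69%, against 2.73, 2.82, 2.74 and 3.23% on the control arrays. The groups overlapped at every duration. Over all durations the smoke arrays ran from 1.46 to 3.69% and the control arrays from 1.76 to 3.54%, and 1 of 15 smoke arrays was above every control array.

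The limma differences of miR-212-3p were 0.23 ± 0.24 log2 at 4 weeks (SE, interval -0.26 to 0.72, adjusted p 0.438) and 0.10 ± 0.24 log2 at 6 weeks (interval -0.38 to 0.59, adjusted p 0.885). At 8 weeks the difference was -0.02 ± 0.24 log2 (interval -0.51 to 0.46) and at 12 weeks 0.02 ± 0.25 log2 (interval -0.50 to 0.54), both with a limma adjusted p of 1. The averaged difference was 0.082 ± 0.12 log2 (interval -0.17 to 0.33, limma adjusted p 0.649, rank 81 of 273). A p above the threshold does not show that the level stayed the same: the averaged interval leaves room for a rise of up to 0.33 log2, below the lower bound of 0.70 log2 for miR-132-3p. The F test between durations gave F = 0.22 (limma adjusted p 0.900). On the linear scale the smoke mean exceeded the control mean by 0.165 percentage points (two-sided permutation test with relabelling within durations, p = 0.403).

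From highest to lowest mean on the log2 scale, the miR-132-3p groups ran 6 weeks smoke, 12 weeks smoke, 4 weeks smoke, 8 weeks smoke, 12 weeks control, 6 weeks control, 8 weeks control and 4 weeks control. Neighbours in that order overlapped in range, except that 8 weeks smoke lay wholly above 12 weeks control, and 8 weeks control lay wholly above 4 weeks control. In mean ± SD the smoke groups held 3.20 ± 1.09% (4 weeks, n = 4), 3.17 ± 0.359% (6 weeks, n = 4), 2.89 ± 0.687% (8 weeks, n = 4) and 3.11 ± 0.178% (12 weeks, n = 3). The control groups held 1.35 ± 0.0682%, 1.79 ± 0.307%, 1.65 ± 0.0615% and 1.87 ± 0.153% in the same order of weeks (n = 4 each). For miR-212-3p the order was 12 weeks smoke, 12 weeks control, 6 weeks smoke, 6 weeks control, 8 weeks control, 8 weeks smoke, 4 weeks smoke and 4 weeks control, and all neighbours overlapped. Its smoke groups held 2.39 ± 0.669%, 2.83 ± 0.504%, 2.43 ± 0.783% and 2.95 ± 0.640%, against 1.97 ± 0.110%, 2.72 ± 0.918%, 2.37 ± 0.243% and 2.88 ± 0.236% in the control groups.

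Before scaling, the picture differed by duration. At 4 weeks the miR-132-3p signal was 56.9, 54.4, 45.7 and 51.5 intensity units on the smoke arrays, against 19.8, 25.2, 18.6 and 36.9 on the control arrays, with no overlap. At 12 weeks it was 62.6, 55.2 and 44.2 on the smoke arrays, against 24.1, 30.8, 27.9 and 21.1 on the control arrays, again with no overlap. At 6 weeks the smoke arrays gave 49.9, 84.3, 52.6 and 56.9 and the control arrays 38.4, 55.9, 31.6 and 19.1, so that 2 of 4 smoke arrays were above every control. At 8 weeks the smoke arrays gave 45.1, 35.2, 39.8 and 52.1 and the control arrays 40.4, 59.1, 41.4 and 37.1, so that none of the smoke arrays was above every control. The scaling moved the 8 weeks groups most: the 75th percentile was 1577 units on the median 8 weeks smoke array (1229 to 1681) and 2480 on the median 8 weeks control array (2337 to 3472). Without scaling, the median of all 273 differences at 8 weeks was -0.86 log2, and miR-132-3p stood at -0.04 log2 (limma adjusted p 0.888), well above that median. At 4 and 12 weeks the unscaled median was 0.093 and 0.20 log2. How many of the tested miRNAs separated the groups before scaling was not counted.

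For miR-212-3p the unscaled signal at 8 weeks was 34.6, 23.2, 35.9 and 52.4 units on the smoke arrays, against 55.8, 85.3, 67.9 and 48.0 on the control arrays. Its unscaled difference there was -0.84 log2 (limma adjusted p 0.0272), about that of the median miRNA. At 4 weeks miR-212-3p ran from 17.5 to 67.4 units on the smoke arrays and from 26.1 to 56.0 on the control arrays, and at 6 weeks from 34.0 to 74.5 on the smoke arrays and from 36.1 to 78.8 on the control arrays. At 12 weeks the smoke arrays, at 49.0 to 51.8 units, were above the control arrays, at 34.3 to 44.5 units. The smoke arrays of that duration were also brighter in general, with a median 75th percentile of 1874 units against 1467 on the control arrays.

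**Figure D3:**
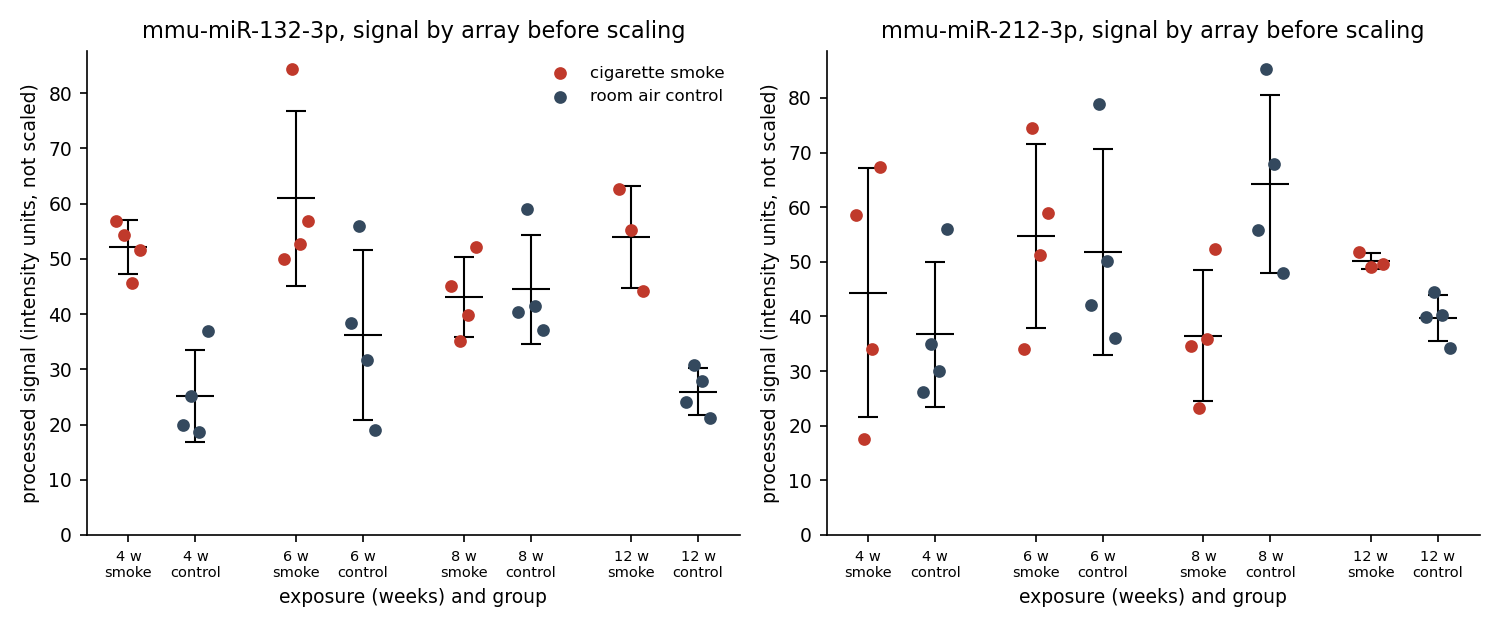
Processed signal in intensity units before scaling, for miR-132-3p (left) and miR-212-3p (right); points are arrays, wide ticks group means and bars 1 SD. At 8 weeks the miR-132-3p smoke arrays (35.2 to 52.1) overlap the control arrays (37.1 to 59.1), and the miR-212-3p smoke arrays (23.2 to 52.4) lie mostly below the control arrays (48.0 to 85.3).

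The ratio of the miR-132-3p signal to the miR-212-3p signal on the same array needs no scaling between arrays. Its size depends on the probes, and only its difference between arrays can be read. The ratio was 0.972, 3.11, 1.34 and 0.765 on the 4 weeks smoke arrays, against 0.760, 0.723, 0.620 and 0.659 on the 4 weeks control arrays. It was 1.47, 1.13, 1.03 and 0.966 on the 6 weeks smoke arrays, against 0.912, 0.709, 0.630 and 0.529 on the 6 weeks control arrays. In both weeks the smoke arrays lay above the controls, at 4 weeks by a narrow margin between the lowest smoke and the highest control array. It was 1.30, 1.52, 1.11 and 0.996 on the 8 weeks smoke arrays, against 0.724, 0.693, 0.610 and 0.772 on the 8 weeks control arrays. It was 1.21, 1.13 and 0.893 on the 12 weeks smoke arrays, against 0.604, 0.692, 0.692 and 0.616 on the 12 weeks control arrays. The groups did not overlap within any duration, 8 weeks included, and 13 of 15 smoke arrays were above all 16 control arrays. Scaled miR-132-3p alone already separated the arrays. How often its ratio to another tested miRNA would separate them was not counted, so the separation is not particular to this pair.

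Averaged over durations, the log2 ratio was 0.80 higher in smoke-exposed lungs (two-sided permutation test with 100000 relabellings within durations, p = 1e-05, the smallest they can give). By duration the difference was 0.95 log2 at 4 weeks, 0.73 log2 at 6 weeks, 0.80 log2 at 8 weeks and 0.72 log2 at 12 weeks. The unequal change of the pair was thus present on the unscaled intensities, where miR-132-3p alone did not pass at 8 weeks. The highest ratio, 3.11, belonged to 4 weeks smoke replicate 2, where miR-132-3p was highest and miR-212-3p lowest among all scaled signals. The 4 weeks value rests largely on smoke replicates 2 and 3, at log2 ratios of 1.64 and 0.42. Smoke replicates 1 and 4 stood at -0.04 and -0.39, against -0.69 to -0.40 on the 4 weeks control arrays. The ratio difference without smoke replicates 2 and 3 together was not computed. Leaving out any 1 array gave averaged differences of 0.70 to 0.87 log2 (permutation p up to 2e-05).

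**Figure D4:**
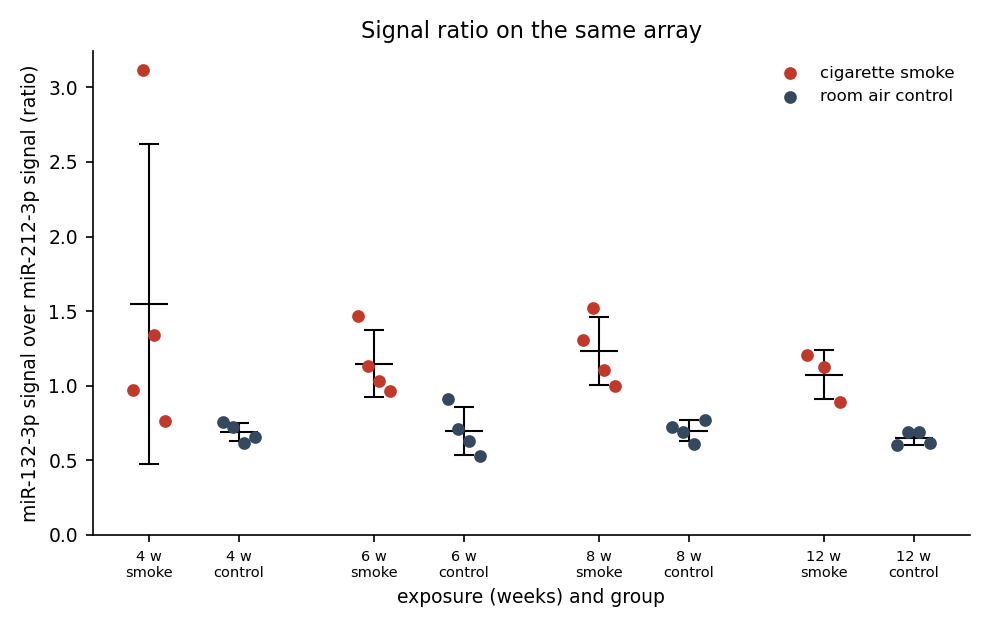
Ratio of the miR-132-3p signal to the miR-212-3p signal on each array, by group; points are arrays, wide ticks group means and bars 1 SD. Within each duration the smoke arrays lie above the control arrays, with 4 weeks smoke replicate 2 at 3.11 the highest of all.

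The dimmer probe of miR-132-3p read a median of 0.496 of the bright probe's signal on the smoke arrays (0.443 to 0.539) and 0.490 on the control arrays (0.412 to 0.576), so the probes kept nearly the same proportion in both. Before any floor its scaled signal ran from 1.02 to 2.27% on the smoke arrays and from 0.613 to 1.12% on the control arrays. It lay under the floor on 0 of 15 smoke arrays and 14 of 16 control arrays, so its fitted differences are set against the floor and give no size of a second measurement. It was above background on 14 of 15 smoke arrays and 8 of 16 control arrays (two-sided Fisher's exact test, durations pooled, p = 0.0155). By duration it was 4 of 4 against 1 of 4 at 4 weeks and 4 of 4 against 3 of 4 at 6 weeks. At 8 weeks it was 3 of 4 smoke against 4 of 4 control arrays, and at 12 weeks 3 of 3 against 0 of 4. The detection call uses no scaling, so the brightness of an array bears on it. The bright probe was above background on 15 of 15 smoke arrays and 15 of 16 control arrays (Fisher's exact test, p = 1), the exception being 4 weeks control replicate 3. Its spots varied by a median of 8.40% (CV) within an array, and no member spot was saturated.

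The bright probe of miR-212-3p was above background on 15 of 15 smoke arrays and 16 of 16 control arrays, with a median spot CV of 8.00%. Its dimmer probe was above background on only 1 of 15 smoke arrays and 3 of 16 control arrays (two-sided Fisher's exact test, p = 0.600) and lay at the floor, so it gives no second measurement. Both miRNAs are dim in lung: the bright probes read 18.6 to 84.3 units (miR-132-3p) and 17.5 to 85.3 units (miR-212-3p) over the 31 arrays, against means of 1.76 to 3.93 units over the negative control spots of an array. The floor, set from the lowest detected probe signals, was 0.936%, or 15.7 units on the array of median brightness. The miR-132-3p control arrays, at 1.28 to 2.19%, lay not far above it. The array also holds an entry for a murine cytomegalovirus miRNA, M23-1-5p. It averaged 2.68 ± 0.556% on the smoke arrays (SD, n = 15) and 2.47 ± 0.748% on the control arrays (SD, n = 16). On the same arrays miR-212-3p averaged 2.63 ± 0.634% and 2.48 ± 0.570%. How much of the miR-212-3p signal is nonspecific was not tested.

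Within a slide, the smoke array was above the control array of the same duration in 15 of 15 pairs for miR-132-3p after scaling. The separation of all scaled smoke arrays from all control arrays fixes that count. Before scaling the smoke array was above in 13 of 15 pairs. The mean difference on slides 1 to 4 was 0.85, 1.02, 0.80 and 0.84 log2. For miR-212-3p the smoke array was above in 8 of 15 pairs after scaling and 9 of 15 before it, and the slide means were 0.18, -0.14, -0.0027 and 0.35 log2. The sign of the miR-132-3p slide means was fixed by that separation, and only their size, 0.80 to 1.02 log2, was free to vary. The miR-212-3p slide means changed sign between slides.

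In the authors' deposited table, which holds log2 values (array medians 2.71 to 2.85) with an unstated normalization, the miR-132-3p row carries the identifier of its dimmer probe. Which probes the values of that row come from was not examined, so they give no separate measurement by that probe. The miR-132-3p entry ran from 5.09 to 5.85 on the smoke arrays and from 4.19 to 4.92 on the control arrays, again with no overlap. The miR-212-3p entry of that deposited table ran from 3.76 to 5.00 on the smoke arrays and from 4.15 to 5.01 on the control arrays. Fitted with limma, these values gave 0.75 log2 (adjusted p 2.71e-09) for miR-132-3p and -0.01 log2 (adjusted p 0.934) for miR-212-3p, averaged over durations.

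Of 10 listed miRNAs induced by Toll-like receptors, interleukin-1 or NF-kB, the inflammatory signals that also induce miR-132 in immune cells, 8 were tested, and averaged over durations 7 rose and 0 fell, where 15.4% of all tested miRNAs rose and 12.1% fell. Their median difference was 0.48 log2, against -0.0048 log2 over all 273. The list was drawn up with results of these data known, so its count and median are a description and no independent evidence. At 4, 6, 8 and 12 weeks 8, 6, 3 and 6 of the 8 rose and 0 fell, where 28.2, 7.69, 3.66 and 5.13% of all tested miRNAs rose. miR-135b-5p, which has been linked to interleukin-1 receptor signalling, averaged 19.7 ± 6.70% on the smoke arrays (SD, n = 15) and lay at the floor on all 16 control arrays. miR-146b-5p, which targets adaptors of Toll-like receptor signalling, rose by 1.24 ± 0.039 log2 (limma adjusted p 1.52e-19) and miR-21-5p, a miRNA of tissue remodelling, by 1.20 ± 0.046 log2 (limma adjusted p 1.32e-17). Their rises were larger than that of miR-132-3p. miR-155-5p, which macrophages make on activation, rose by 0.54 ± 0.11 log2 (limma adjusted p 0.000368), and miR-146a-5p, a relative of miR-146b-5p, by 0.43 ± 0.075 log2 (limma adjusted p 0.000101). Both arms of the Mir31 hairpin passed: miR-31-3p and its 5p partner rose by 0.42 and 0.41 log2. miR-223-3p, a miRNA of neutrophils, stood at 0.34 log2 (limma adjusted p 0.0740). Without scaling, miR-146a-5p (0.28 log2), the 5p arm of Mir31 (0.26) and its 3p arm (0.27) no longer passed (limma adjusted p 0.205, 0.255 and 0.256), while the other 4 did.

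**Figure D5:**
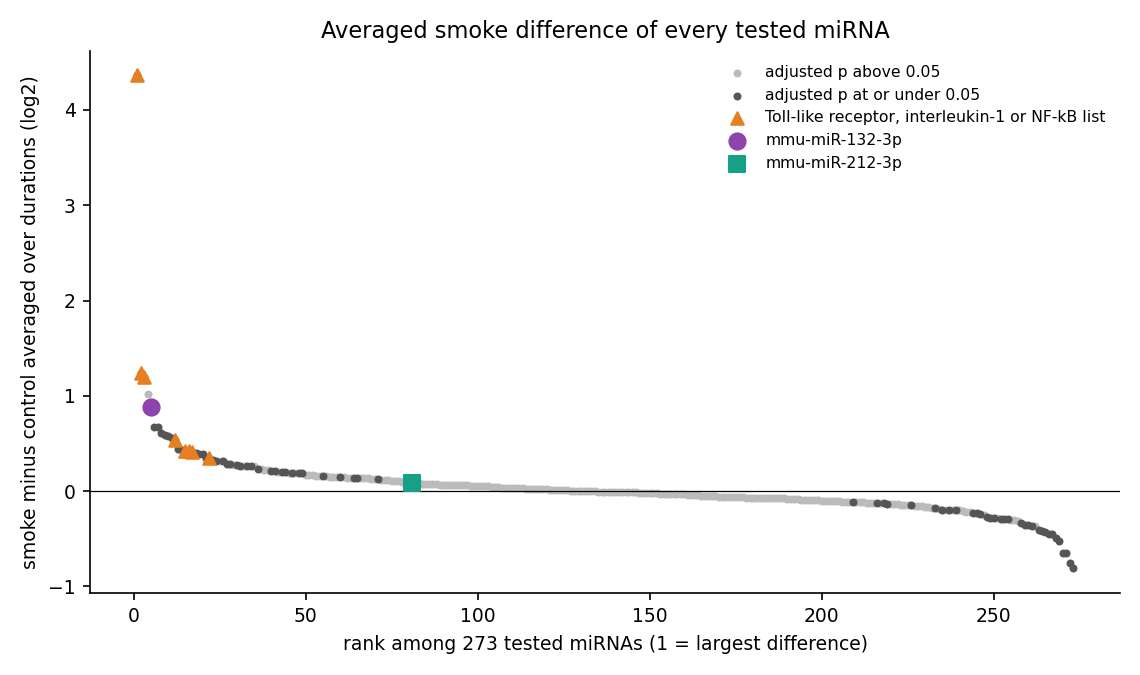
Smoke minus control difference averaged over durations (log2) for each of the 273 tested miRNAs, ordered by size; large symbols mark miR-132-3p (rank 5) and miR-212-3p (rank 81), triangles the 8 tested miRNAs of the inflammatory list, and dark points those at or under an adjusted p of 0.05. The value of miR-135b-5p, at the far left, is measured against the floor on the control arrays.

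Of 5 other miRNAs that activity induces in neurons, 3 were tested, of which 1 rose and 0 fell (15.4 and 12.1% over all tested miRNAs), with a median difference of -0.0022 log2. The 1 that rose was miR-188-5p, by 0.20 log2 (limma adjusted p 0.000304), with 15 of 16 control arrays at the floor, and it did not pass without scaling (0.09 log2, limma adjusted p 0.57). miR-379-5p and miR-329-3p, from the imprinted Dlk1-Dio3 region, stood at -0.0022 and -0.02 log2. Of 6 neuronal markers, miR-124-3p, miR-9-3p, miR-129-5p and miR-138-5p were above background on 0 of 31 arrays and miR-9-5p on 2. The sixth, miR-128-3p, was above background on 31 of 31 arrays, at 4.52 ± 0.627% on the smoke arrays (SD, n = 15) and 4.58 ± 0.267% on the control arrays (SD, n = 16). It was the only one tested, at -0.03 log2 (limma adjusted p 0.705), and the summed signal of the 6 ran from 3.94 to 7.11% on the smoke arrays and from 4.38 to 5.23% on the control arrays.

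Markers of other lung and blood cells were measured on the same arrays. Of 5 myeloid and lymphoid miRNAs, 1 rose (miR-155-5p) and 2 fell: miR-142-3p and miR-142-5p, the arms of a hairpin of blood cells, both by 0.65 log2. At 4 weeks 2 of the 5 rose and 2 fell, where 28.2% of all tested miRNAs rose and 11.4% fell, so a sum joins opposite changes. Of the 5, miR-142-3p was the brightest, with a mean of 400% on the smoke arrays and 591% on the control arrays. The summed scaled signal of all 5 was 511 to 838% on the 4 weeks smoke arrays, against 897 to 929% on the 4 weeks control arrays, and 605 to 759% on the 12 weeks smoke arrays, against 874 to 1024% on the 12 weeks control arrays. At 6 weeks it was 640 to 678% on the smoke arrays, against 704 to 902% on the control arrays, and at 8 weeks 582 to 1075% on the smoke arrays, against 761 to 779% on the control arrays. The groups did not overlap in this sum except at 8 weeks, where the smoke arrays spread on both sides of the controls. At 6, 8 and 12 weeks 0 of the 5 miRNAs passed in either direction. How many tested miRNAs had every smoke array below every control array was not counted. Of 8 lung epithelial miRNAs, 2 rose and 0 fell, and of 2 endothelial ones 0 rose and 1 fell, beside 15.4% that rose and 12.1% that fell among all tested miRNAs. Of 3 smooth muscle and fibroblast miRNAs, 1 rose, and 0 of 2 erythroid, 0 of 3 striated muscle and 0 of 1 liver miRNAs passed. These counts are averages over durations and can join opposite changes. At 4 weeks 2 of the 3 striated muscle and 1 of the 2 erythroid miRNAs fell, beside 11.4% of all tested miRNAs. The muscle miRNA miR-133a-3p differed by -0.93 log2 at 4 weeks and 1.12 log2 at 6 weeks (limma adjusted p 0.0463 and 0.0563). The part of cell composition in the miR-132-3p result was not tested.

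The miRNAs most like miR-132-3p were those with the smallest root mean square distance between their 4 differences (4, 6, 8 and 12 weeks) and its own. They were miR-672-5p (0.34 log2), miR-155-5p (0.34), miR-34a-5p (0.38), miR-689 (0.41) and miR-551b-3p (0.41). miR-672-5p, for example, differed by 0.84, 0.64, 0.28 and 0.47 log2 at the 4 durations, against 1.18, 0.83, 0.78 and 0.74 log2 for miR-132-3p. miR-212-3p ranked 72 by this distance (0.80 log2). For miR-212-3p the nearest were let-7g-5p (0.016 log2), miR-434-3p (0.028), miR-16-5p (0.053), miR-721 (0.055) and miR-221-3p (0.065). miR-721 was above background on 4 of 15 smoke arrays and 0 of 16 control arrays, and all its control arrays lay at the floor, so the floor sets its differences and its place in this order. The floor also bears on miR-434-3p and miR-551b-3p, with 4 and 5 of 16 control arrays at it.

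A second measure was Pearson's r of the deviations from the group means over the 31 arrays, all of which share the scaling of their array. For miR-132-3p the highest values were those of miR-99b-5p (0.942), miR-99a-5p (0.926), miR-25-3p (0.922), let-7c-5p (0.915) and miR-200b-3p (0.915). For miR-212-3p they were an entry for a murine cytomegalovirus miRNA, M23-1-5p (0.858), miR-712-5p (0.789), miR-720 (0.786), another such viral entry, m88-1 (0.773), and miR-31-3p (0.678). The viral entries were above background on 15 and 11 of 15 smoke arrays and on 16 and 12 of 16 control arrays. miR-712-5p was above background on 8 of 15 smoke and 12 of 16 control arrays, with 5 control arrays at the floor. The r between miR-132-3p and miR-212-3p was 0.193, rank 180 for miR-132-3p and rank 145 for miR-212-3p, a weak positive value. These values describe the 31 arrays and carry no test.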

How the data were processed

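Lung RNA carried 1 dye, Cy3, per the labels, and was read on Agilent mouse miRNA arrays. Per the file headers, each deposited spot intensity had its background subtracted by Feature Extraction 10.7.3.1, and these values were taken as unscaled. The authors also deposited a series table in log2, whose normalization was not stated. Its scale was judged from its correlation with the scaled scanner values (r 0.981 to 0.986 by array). Arrays were grouped by their titles.

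Control spots and outlier spots (297 to 655 per array) were left out, and remaining spots were averaged by probe. A probe was detected with 50% of its spots above background, and arrays were scaled to the 75th percentile of the 385 probes that all 31 detected. Values below 0.936% of it (log2 -6.74) were raised to that floor before logs were taken. No bright-probe signal of either miRNA lay at the floor. The brightest probe stood for a miRNA, and the test covered 273 of 650 miRNAs, each detected in some group on 75% of its arrays. Differences came from limma 3.58.1 in R 4.3.3 with 8 group means and 23 residual degrees of freedom. Benjamini-Hochberg adjustment ran over all 273 with a threshold of 0.05. Permutation tests used NumPy 2.4.6 and Fisher tests SciPy 1.17.1. The fits were tested on simulated data.

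The named miRNAs are the 2 described, their 5p arms, the 5 nearest by each measure of likeness, and the listed ones. Members and lists were chosen with earlier results of these data known. The planned normexp alternative used the median spot signal, since the files used here hold no mean signal column. The replicate numbers do not pair the samples: over 105 pairs of arrays with the same number in different groups, the deviations from group means correlated with a median r of 0.023 and a lowest r of -0.754.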

Additional observations from a re-analysis of the deposited data

How the results depend on the processing

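miR-132-3p kept its direction and its call at each duration and averaged without any 1 array: 0.99 to 1.32 log2 at 4 weeks, 0.76 to 0.94 at 6, 0.66 to 0.89 at 8, 0.68 to 0.77 at 12 and 0.84 to 0.92 averaged. It also kept them with quantile or all-probe scaling, the summed signal, the mean of probes, the deposited table, no filter, a lower floor, outlier spots kept, and slide as a block. With the replicate block it was 1.18, 0.83, 0.78, 0.72 and 0.88 log2 averaged, and no call changed. The dimmer probe kept the calls too, but 14 of its 16 control arrays lay at the floor, which sets its differences. The filter on detection on every array removes miR-132-3p.

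Without scaling it was 0.82 log2 at 6 weeks (limma adjusted p 0.143) and -0.038 at 8 weeks (0.888), and its F test passed (F = 4.31, 0.0354). Without scaling far more of the tested miRNAs passed that F test than the 6.96% with scaling, as counted below. The pass is therefore not particular to miR-132-3p. The cause was not tested. With quantile scaling the values were 0.81 and 0.72 log2 (limma adjusted p 0.000771 and 0.00135). A floor 4 times higher, 3.74% of the 75th percentile, leaves miR-132-3p above it on 1 of 31 arrays and miR-212-3p on 0, so by construction its 4 weeks value was 0.069, its average 0.017 and the difference of the pair 0.017 log2, with no value elsewhere.

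Normexp with offset 50 gave -0.72, 0.16, 0.56 and 0.10 log2 at 4, 6, 8 and 12 weeks and 0.026 averaged for miR-132-3p, with none passing (limma adjusted p 0.203 to 0.998). Its lowest corrected signal was 1409, 132 and 63.3 units on 4 weeks control replicates 3 and 4 and 12 weeks smoke replicate 3, against at most 56.1 on the other arrays. Chosen after seeing the data, leaving these out gave 0.34, 0.16, 0.56 and -0.051, and 0.25 averaged (limma adjusted p 0.133). With no offset as well it gave 0.81 (0.0656), 0.61 (0.0507), 0.75 (0.0156) and 0.35 (0.291), and 0.63 averaged (0.000107). The log2 difference of the pair, 0.80, was 0.28 under normexp and 0.54 with no offset (permutation p 1e-05 each).

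miR-212-3p passed under 1 alternative, no scaling at 8 weeks (-0.84 log2, limma adjusted p 0.0272). Most of the tested miRNAs were called in that setting, as counted below, and their median difference was -0.86 log2. The sign of miR-212-3p near 0 was unstable. Averaged, it turned to -0.064 without scaling, -0.19 under normexp and -0.012 in the deposited table, and on the linear scale to -1.71 intensity units without scaling. At 4 weeks normexp gave -0.95, and at 6 weeks -0.047 (also without the 3 arrays), with -0.016 in the deposited table. At 8 weeks it was 0.0037 with all-probe scaling and 0.39, 0.39 and 0.13 under the 3 normexp settings. At 12 weeks these gave -0.15, -0.35 and -0.25, the deposited table -0.030, outlier spots kept -0.028, slide as a random block -0.0015 and leaving out 12 weeks smoke replicate 3 -0.15. Without 1 array it ranged from 0.10 to 0.45 at 4 weeks, -0.087 to 0.25 at 6, -0.19 to 0.19 at 8, -0.15 to 0.11 at 12 and 0.035 to 0.14 averaged. Its sign turned at 6 weeks without control replicate 1, at 8 weeks without control replicate 3 or smoke replicate 2 or 3, and at 12 weeks without control replicate 1 or 3 or smoke replicate 3. The share of arrays with miR-132-3p above background differed by 6.25 percentage points, and by 43.3 points for its dimmer probe.

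Under normexp miR-31-3p turned to -0.084, miR-188-5p to -0.26 (-0.031 without the 3 arrays) and miR-551b-3p to -0.13 log2. Counts of miRNAs called moved as follows. At 4 weeks (108) they were 61 with all-probe scaling, 4 without scaling, 46 under normexp, 56 with no filter, 63 with the higher floor, 17 without smoke replicates 2 and 3, 18 in that duration alone, and 37 to 150 without 1 array (43 without control replicate 4, 40 without smoke replicate 2, 37 without smoke replicate 3). At 6 weeks (22) they were 2 without scaling, 4 under normexp, 13 with the higher floor and 15 to 32 without 1 array. At 8 weeks (30) they were 203, 3 and 18, then 79 with summed signals, 52 in the deposited table and 22 to 41 without 1 array. At 12 weeks (26) they were 5, 4 and 15, then 45 with quantile scaling, 40 with summed signals, 47 in the deposited table, 46 without 4 weeks smoke replicates 2 and 3, 93 in that duration alone and 18 to 39 without 1 array. Averaged (75) they were 29, 12 and 45, and 70 to 90 without 1 array. For limma's F test (19) they were 133, 0 (36 at an unadjusted p under 0.05) and 10, then 12 with quantile scaling, 94 with summed signals, 46 in the deposited table, 10 with no filter, 30 without 12 weeks smoke replicate 3, and 10 to 67 without 1 array. That last count moved by over 1.5 times without 4 weeks control replicate 4 (10), 4 weeks smoke replicates 1 (34) and 4 (64), 6 weeks control replicate 2 (35), 8 weeks control replicates 1 to 4 (10 to 12), 8 weeks smoke replicates 1 (36), 2 (11) and 4 (67), 12 weeks control replicate 2 (12), and 12 weeks smoke replicates 1 and 2 (11 each) and 3 (30). The cause of these shifts was not tested. Both miRNAs read 17.5 to 85.3 intensity units, against negative control means of 1.76 to 3.93 units and a floor of 15.7 units on the array of median brightness.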
